A study of Danio rerio with 24 samples.

Results

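Among the probe sets of a zebrafish array, 80 were close to their vehicle level in larval jaw 1 and 2 h after the start of exposure to TCDD (2,3,7,8-tetrachlorodibenzo-p-dioxin) and higher with TCDD at both 4 and 12 h. They were chosen by their measured differences, as follows. The difference at each time was the mean log2 intensity of 3 TCDD arrays minus that of 3 vehicle arrays. A probe set qualified if its absolute difference was under 0.2 at 1 h and at 2 h and its difference was at least 0.2 at 4 h and at 12 h. Array controls, the probe sets whose cluster number is that of cyp1a or of sox9b, and those with a mean log2 intensity under 4 over the 24 arrays were left out beforehand. This left 8781 of 15502 probe sets, of which 119 met the bounds, and the 80 with the largest smaller difference of 4 and 12 h were kept. The values at all 4 times therefore chose the members, and their differences below are a description, not a test.

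Larvae of the AB strain were held in water with TCDD at 1 ng/ml for 1 h beginning at 96 h post fertilization (hpf), or with the vehicle, 0.1% dimethyl sulfoxide. Both treatments were followed by rinsing and by culture in fish water, and no group carried a mutation or a transgene named in the labels. Heads were cut off in front of the pectoral fin and the eyes and brain were taken out, so the "jaw" still holds cartilage, bone, muscle, skin and other head tissue. RNA from 10 pooled jaws went on each array, and the groups were TCDD and vehicle at 1 h (97 hpf), 2 h (98 hpf), 4 h (100 hpf) and 12 h (108 hpf), with 3 arrays each from 3 independent time courses.

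TCDD binds the aryl hydrocarbon receptor (AHR), a transcription factor that then moves to the nucleus and switches on genes such as those of the cytochrome P450 family 1. Direct targets of the receptor can respond soon after exposure, and genes that answer to products of those targets respond later. In fish larvae TCDD is known for malformed jaw cartilage, and the series' title links its effect on the jaw to reduced sox9b, which encodes a regulator of cartilage formation. The design sets TCDD against vehicle at each time, and so asks when jaw transcripts begin to differ and whether they go on differing.

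The array median intensities lay between 22.1 and 24.1 at 1 h, between 33.4 and 34.9 at 2 h, between 25.9 and 27.9 at 4 h and between 13.9 and 15.1 at 12 h. Levels can therefore be compared between treatments within a time and not between times. A probe set's brightness depends on its probes as well as on its transcript, so ranks within an array serve only as a guide to signal over background. The cartilage gene col2a1a was well above background, at 13.39 ± 0.30 with TCDD and 13.30 ± 0.17 with vehicle at 4 h (log2 intensity, SD, n = 3 each), above 99.7% of probe sets in vehicle jaws. Its rank does not show how much cartilage the jaws held. The probe set of the cartilage regulator sox9a was low, at 2.61 ± 0.21 with TCDD and 2.48 ± 0.03 with vehicle. A labelling control, the signal of the dap 5′ probe set minus that of its 3′ probe set, was −0.51 on TCDD 12 h replicate 3 and between −3.84 and −2.83 on the other 12 h arrays. On the vehicle arrays at 1, 2 and 4 h it lay between −1.35 and −0.24, so −0.51 stood apart only from the other arrays of 12 h. It was −2.92 on TCDD 1 h replicate 2 and between −0.77 and 0.16 on the other 1 h arrays. Some values that moved when the 12 h array was left out are given beside the results they touch. Other 12 h values are given with all arrays only, and some of them moved too. Without that array the 12 h difference was, for example, lower for chd7 (0.37) and higher for igfbp1a (1.05) than the values given below. Without TCDD 1 h replicate 2 the members' median at 1 h was 0.04, with differences between −0.30 and 0.32.

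The members' median difference, TCDD minus vehicle on the log2 scale, was 0.00 at 1 h and 0.06 at 2 h, then 0.36 at 4 h and 0.35 at 12 h. Over all 15502 probe sets the 4 medians were −0.01, 0.02, 0.00 and −0.03. The medians at 4 and 12 h correspond to levels 1.29-fold and 1.27-fold those of vehicle, so most members differed by little. The differences ran from 0.25 to 1.31 at 4 h and from 0.25 to 1.37 at 12 h, and the median standard error of a member's difference was 0.18. Only 3 members were at least 2-fold higher at 4 h (abca12, dchs1b and Dr.18862.1.S1_at) and 2 at 12 h (abca12 and Dr.18862.1.S1_at). Within the bound of the rule, 60 members lay above vehicle and 20 below it at 2 h, where 56.8% of all probe sets lay above. At 1 h the split was 40 and 40, beside 46.8% of all probe sets above vehicle.

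**Figure D1:**
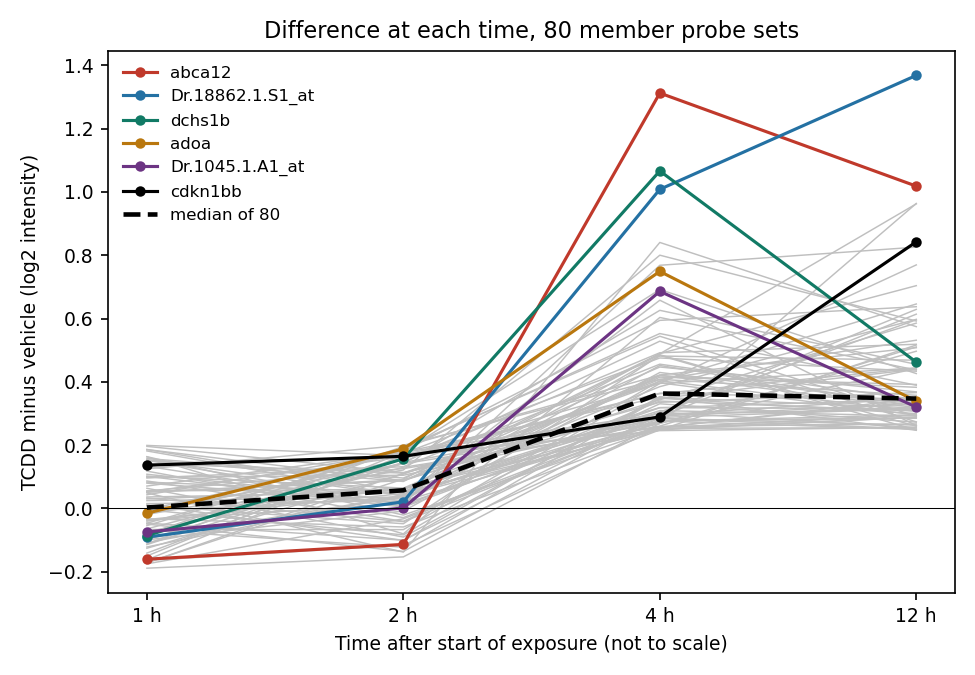
TCDD minus vehicle difference of mean log2 intensity at 1, 2, 4 and 12 h (horizontal axis, not to scale) for the 80 members, 1 line each. The 6 coloured or black lines are the members past the test threshold at 4 or 12 h, grey lines are the others and the dashed line is the median of the 80, at 0.00, 0.06, 0.36 and 0.35; lines stay within 0.2 of zero at 1 and 2 h because the rule required it.

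The difference can also be set out array by array. The rule used the means of these same arrays, so the values describe the members chosen and do not test them. At 4 h the median member lay 0.45, 0.34 and 0.37 above the vehicle mean on TCDD replicates 1, 2 and 3, with 77, 76 and 69 of the 80 members above it. The vehicle arrays lay at −0.09, 0.04 and 0.06 on the same measure, which is taken from their own mean. At 12 h the TCDD arrays stood at 0.35, 0.47 and 0.35, with 78, 75 and 71 members above the vehicle mean, and the vehicle arrays at −0.03, 0.02 and 0.02. Without TCDD 12 h replicate 3 the members' 12 h median difference was 0.42. Over all probe sets the median on TCDD replicates 1, 2 and 3 was −0.07, −0.09 and 0.12 at 4 h. At 12 h it was −0.06, 0.06 and −0.09, so arrays also shifted as a whole.

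Few probe sets met all the bounds. Of the 8781 eligible probe sets, 2827 were within 0.2 of vehicle at 1 and 2 h. Of these, 511 (18.1%) were at least 0.2 higher with TCDD at 4 h and 567 (20.1%) at 12 h, and the 119 that met both bounds made up 23.3% of the 511 and 21% of the 567. Among all eligible probe sets, 19% were at least 0.2 higher at 4 h, 22.7% at 12 h and 5.58% at both. The mirrored bounds, lower by at least 0.2 at 4 and 12 h, took in 72 probe sets.

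In the limma test across all probe sets (adjusted p under 0.05), 5 members were past the threshold as higher at 4 h, where 50 of the 15502 probe sets (0.323%) were. At 12 h 3 members were, beside 60 probe sets (0.387%). The test reads the same arrays as the rule, so these counts describe the members and nothing is read from their excess over the background. The members at 4 h were abca12, dchs1b, adoa, Dr.18862.1.S1_at and Dr.1045.1.A1_at, and those at 12 h were abca12, cdkn1bb and Dr.18862.1.S1_at. None passed at 1 or 2 h, where 16 (0.103%) and 13 (0.0839%) of all probe sets passed as higher and 25 (0.161%) passed at either time in any direction. At an unadjusted p under 0.05, 32 members were higher at 4 h (3.44% of all probe sets) and 36 at 12 h (3.85%), and 0 differed at 1 or 2 h. With TCDD 1 h replicate 2 left out, 1 differed at 1 h. The rule bounded the differences at 1 and 2 h, and the share of all probe sets at this unadjusted p is not given. Nothing is therefore read from the unadjusted counts at these times. The count past the adjusted threshold at 4 h was 1 without TCDD 4 h replicate 1, 2 without TCDD 4 h replicate 2, 3 without vehicle 4 h replicate 1, 3 without vehicle 4 h replicate 2 and 2 without vehicle 4 h replicate 3. The count at 12 h was 1 without vehicle 12 h replicate 1. It was 5 after quantile normalization and 21 with array weights. Without replicate 1 or 2 at every time it was 1 and the count at 4 h was 0, and without replicate 3 at every time the counts were 0 at 12 h and 2 at 4 h. The shares of all probe sets given above belong to the main fit. Those under the alternatives are not given, so nothing is read from how the counts moved.

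A plainer view is whether the lowest TCDD array exceeded the highest vehicle array. This held for 35 members at 4 h, beside 3.61% of all probe sets, and for 34 at 12 h, beside 4.84%. It held at both times for 16 members, beside 0.748% of all probe sets, and at neither time for 27. At 1 h it held for 0 members (7.6% of all probe sets) and at 2 h for 2, npr3 and cdkn1bb (4.69%). With TCDD 1 h replicate 2 left out it held for 6 members at 1 h, beside 12% of all probe sets. Without TCDD 12 h replicate 3, which leaves fewer arrays to compare, it held for 56 members at 12 h, beside 9.3% of all probe sets, and for 27 at both times, beside 1.26%. The rule used these differences too, so the counts again describe only the members chosen.

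The probe set first in rank measured abca12, an ABC transporter whose human and mouse forms load lipid into the lamellar granules of skin keratinocytes. Its levels at 4 h were 9.78, 9.35 and 9.89 in TCDD jaws, against 8.20, 8.31 and 8.57 in vehicle jaws (log2 intensity, replicates 1, 2 and 3, as in the rest of the text). At 12 h they were 8.75, 8.33 and 8.94 in TCDD jaws, against 7.65, 7.25 and 8.07 in vehicle jaws. The groups were apart at both times, by 1.31 ± 0.22 at 4 h (2.48-fold) and 1.02 ± 0.22 at 12 h (2.03-fold, differences ± SE, n = 3 each). At 1 and 2 h its means were 8.63 and 10.07 with TCDD, against 8.79 and 10.18 with vehicle. Without TCDD 12 h replicate 3 its 12 h difference was 0.89.

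Dr.18862.1.S1_at, which has no gene symbol in the annotation used, held 6.51, 5.87 and 5.68 in TCDD jaws at 4 h, against 4.75, 5.21 and 5.08 in vehicle jaws. The corresponding values at 12 h were 5.52, 6.10 and 5.58 with TCDD, against 4.15, 4.50 and 4.44 with vehicle. The groups did not overlap at either time. Its differences were 1.01 ± 0.18 (2.01-fold) at 4 h and 1.37 ± 0.18 (2.58-fold) at 12 h, the largest of any member at 12 h. At 1 h its means were 4.12 with TCDD and 4.21 with vehicle.

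dchs1b encodes a Dachsous cadherin, a large cell adhesion protein that acts with Fat cadherins in planar cell polarity. At 4 h it stood at 6.79, 6.95 and 6.16 in TCDD jaws, against 5.65, 5.61 and 5.45 in vehicle jaws, a difference of 1.07 ± 0.20 (2.09-fold). At 12 h it held 4.95, 4.52 and 5.29 in TCDD jaws, against 4.35, 4.69 and 4.32 in vehicle jaws. The groups were apart at 4 h and overlapped at 12 h, where the difference was 0.46 ± 0.20.

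adoa is named for a thiol dioxygenase, an enzyme that oxidizes cysteamine in mammals. At 4 h its levels were 5.99, 5.84 and 5.64 with TCDD, against 5.35, 5.02 and 4.86 with vehicle, apart by 0.75 ± 0.16. At 12 h they were 5.65, 5.24 and 4.91 with TCDD, against 4.84, 4.96 and 4.99 with vehicle, and TCDD replicate 3 lay inside the vehicle range. Dr.1045.1.A1_at, also without a symbol, was 7.68, 7.77 and 7.67 at 4 h with TCDD, against 7.25, 6.93 and 6.88 with vehicle. At 12 h it was 6.87, 6.63 and 6.67 with TCDD, against 6.36, 6.35 and 6.50 with vehicle. Its groups were apart at both times, by 0.69 ± 0.13 and 0.32 ± 0.13.

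cdkn1bb belongs to the p27 family of cyclin-dependent kinase inhibitors, which slow entry into the cell cycle. Its levels at 12 h were 7.52, 7.68 and 8.29 in TCDD jaws, against 6.92, 7.19 and 6.85 in vehicle jaws, apart by 0.84 ± 0.16 (1.79-fold). At 4 h they were 8.93, 8.92 and 8.57 with TCDD, against 8.51, 8.60 and 8.44 with vehicle. TCDD replicate 3 fell inside the vehicle range there, and the difference was 0.29 ± 0.16. Without TCDD 12 h replicate 3 the 12 h difference of cdkn1bb was 0.61. With only 3 arrays a group, 1 array decided several of these calls. Leaving out a single array of the time in question ended the 12 h call of abca12 in 4 of 6 refits (adjusted p between 0.107 and 0.18: TCDD replicates 1 and 3 and vehicle replicates 1 and 2). It ended the 4 h call of dchs1b in 4 (0.0517 to 0.108: TCDD replicates 1 and 2, vehicle replicates 1 and 3). The 4 h call of adoa was lost in 4 (0.101 to 0.205), as was that of Dr.1045.1.A1_at (0.0682 to 0.116), each without TCDD replicate 1 or 2 or vehicle replicate 2 or 3. The 12 h call of cdkn1bb was lost in 3 (0.0758 to 0.0811: TCDD replicate 3, vehicle replicates 1 and 3), and the 4 h call of Dr.18862.1.S1_at in 2 (0.0626 and 0.0821: TCDD replicate 1, vehicle replicate 1). Leaving out a replicate number at every time left 2 arrays a group and ended more calls. It ended those of abca12 at 4 h (adjusted p between 0.0545 and 0.383) and 12 h (0.132 to 0.457), of adoa (0.131 to 0.379), Dr.1045.1.A1_at (0.174 to 0.245) and Dr.18862.1.S1_at at 4 h (0.083 to 0.394) and of cdkn1bb at 12 h (0.127 to 0.279), whichever number was left out. The 4 h call of dchs1b was lost without number 1 (0.649) or 2 (0.181), and the 12 h call of Dr.18862.1.S1_at without number 2 (0.0697) or 3 (0.0617). The 12 h call of abca12 was also lost with an offset of 16 (0.0611) and with the dap covariate (0.0802), and the 4 h call of adoa with eBayes trend and robust settings (0.0692).

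**Figure D2:**
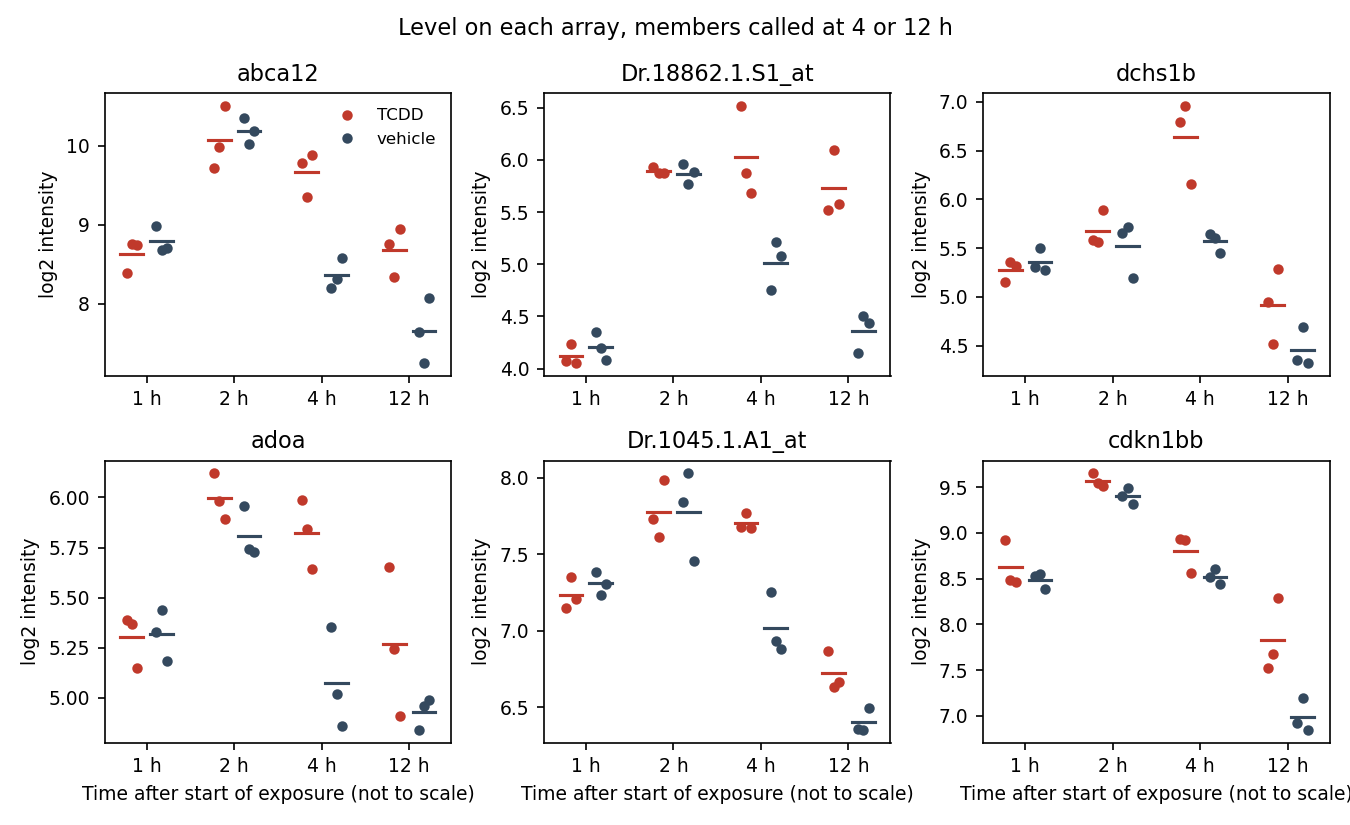
Log2 intensity on each array at 1, 2, 4 and 12 h for the 6 members past the limma threshold at 4 or 12 h, 1 panel each, with TCDD points and their mean (bar) left of vehicle points and their mean. At 4 h all TCDD points of abca12, Dr.18862.1.S1_at, dchs1b, adoa and Dr.1045.1.A1_at lie above the vehicle points, while the groups of every panel overlap at 1 h; levels at different times cannot be compared.

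The other 74 members were past the limma threshold at neither time. Their differences lay between 0.25 and 0.84 at 4 h (median 0.35) and between 0.25 and 0.96 at 12 h (median 0.35). The values below are therefore given without a claim that any of these genes changed.

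The members are taken by known role below only for reading, with no test of any role. lef1 encodes a transcription factor that carries Wnt signals to their target genes. At 4 h it stood at 5.996, 5.88 and 3.99 in TCDD jaws, against 4.16, 4.24 and 4.95 in vehicle jaws, so replicate 3 lay below every vehicle array although the mean was 0.84 ± 0.38 higher. At 12 h its levels were 3.51, 3.45 and 4.27 with TCDD, against 3.11, 3.12 and 3.28 with vehicle, apart but dim, with means above 46.7% of probe sets in TCDD jaws and 32.4% in vehicle jaws. tsc22d3, whose mammalian form is the glucocorticoid-induced leucine zipper, held 6.80, 6.51 and 5.57 with TCDD at 4 h, against 5.56, 5.03 and 5.89 with vehicle. Its 12 h levels were 5.02, 5.66 and 5.92 with TCDD, against 4.72, 4.93 and 5.17 with vehicle, and the groups overlapped at both times. chd7, a chromatin remodeller mutated in human CHARGE syndrome, was 0.41 higher at 4 h and 0.53 higher at 12 h, where its means were a dim 3.82 with TCDD and 3.29 with vehicle. bcl7ba, whose mammalian relatives are subunits of the BAF remodelling complex, was 0.42 and 0.51 higher with no overlap at either time. sox3, a transcription factor gene of neural progenitors, was 0.42 and 0.38 higher, and fam53b was 0.38 and 0.60 higher.

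Other members have known roles in protein turnover or in traffic inside the cell. ubb encodes polyubiquitin, the source of the ubiquitin tag for degradation, and its repeats are near copies of those of other ubiquitin genes, so signals of these genes may be mixed. Its levels were 10.67, 10.27 and 11.06 at 4 h with TCDD, against 10.16, 10.14 and 9.91 with vehicle. At 12 h they were 9.19, 9.37 and 9.85 with TCDD, against 8.62, 9.06 and 8.82 with vehicle, so the groups did not overlap at 4 or 12 h (0.59 ± 0.20 and 0.64 ± 0.20). snx4, a sorting nexin that returns cargo from endosomes, was 8.14, 8.20 and 8.15 with TCDD at 4 h, against 7.88, 7.46 and 7.69 with vehicle. At 12 h it was 6.58, 6.19 and 7.004 with TCDD, against 5.58, 5.71 and 5.59 with vehicle, again without overlap, and its difference of 0.96 ± 0.25 equalled that of igfbp1a as the largest at 12 h outside the members past the threshold. vps4b, an ATPase of the ESCRT pathway that closes off membrane buds, was 0.36 and 0.35 higher. ube2l3b, a ubiquitin-conjugating enzyme, was 0.27 and 0.50 higher. smurf2, a ubiquitin ligase that acts on the TGF-beta and BMP pathways, was 0.34 and 0.31 higher. The autophagy genes optn (0.27 and 0.44) and atg3 (0.28 and 0.29), npc1 of lysosomal cholesterol export (0.32 and 0.31) and atp6ap1b, an accessory subunit of the proton pump of acid organelles (0.53 and 0.27), are further members with such roles.

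Among genes of signals between cells, npr3 encodes the receptor that clears natriuretic peptides. At 4 h it held 4.53, 4.24 and 4.38 with TCDD, against 4.17, 3.88 and 3.62 with vehicle. At 12 h it held 4.20, 4.82 and 4.47 with TCDD, against 3.99, 3.96 and 3.99 with vehicle. The groups were apart at both times. igfbp1a, an insulin-like growth factor binding protein, was 7.50, 7.60 and 7.28 at 12 h in TCDD jaws, against 6.62, 5.85 and 7.02 in vehicle jaws, a difference of 0.96 ± 0.42. Its 4 h levels of 8.31, 7.86 and 8.16 with TCDD overlapped the 7.46, 8.37 and 7.69 with vehicle (0.27 ± 0.42). ada2a, a secreted adenosine deaminase, was 0.60 higher at 4 h and 0.44 at 12 h, without overlap at either time, though dim at 12 h with means of 3.58 with TCDD and 3.14 with vehicle. rit1, a Ras-related GTPase, was 0.55 and 0.39 higher, memo1 0.45 and 0.37, and chuk, the kinase IKK-alpha of NF-kappa-B signalling, 0.30 and 0.35. The sheddase gene adam17a was 0.30 and 0.31 higher, and the tight junction gene cldnf 0.30 and 0.63.

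The rest of the first 25 by rank have no role given here. mul3 was 0.48 higher at 4 h and 0.43 at 12 h, lmbrd2b 0.41 and 0.39, si:ch211-195b13.1 0.40 and 0.65, and zgc:56585 0.39 and 0.77. The last 3 did not overlap between groups at either time, and zgc:56585 was dim at 12 h, at 4.09 with TCDD and 3.32 with vehicle. Probe sets without a symbol in this stretch were Dr.19440.1.A1_at (0.77 and 0.83), Dr.4975.1.A1_at (0.49 and 0.70), Dr.13163.1.A1_at (0.48 and 0.47), Dr.14843.1.S1_at (0.63 and 0.46), Dr.23163.1.A1_at (0.69 and 0.43) and Dr.18158.1.A1_at (0.39 and 0.44). In all, 21 members have no symbol, and their median differences were 0.35 at 4 h and 0.34 at 12 h. Of these 21, 8 were without overlap at 4 h (3.61% of all probe sets) and 7 at 12 h (4.84%). The rule chose them for being higher at both times, so these counts only describe them.

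The members held both larger early and larger late differences. The rule sets the same bound at 4 and 12 h and ranks by the smaller difference, which favours probe sets with similar values at the 2 times. The counts below therefore describe the members chosen. The difference was larger at 12 h than at 4 h for 41 and larger at 4 h for 39, and the 2 differences lay within 0.1 of each other for 43. None passed limma's test of the 12 h minus the 4 h difference (8 of all probe sets, 0.0516%, did). At an unadjusted p under 0.05 there were 2, beside 5.08% of all probe sets. These were dchs1b, with a 12 h minus 4 h difference of −0.60 ± 0.28, and cdkn1bb, with 0.55 ± 0.23. A miss of the threshold does not show that the effect was equal at both times, since the standard error of this difference was 0.31 for abca12 and 0.26 for Dr.18862.1.S1_at.

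**Figure D3:**
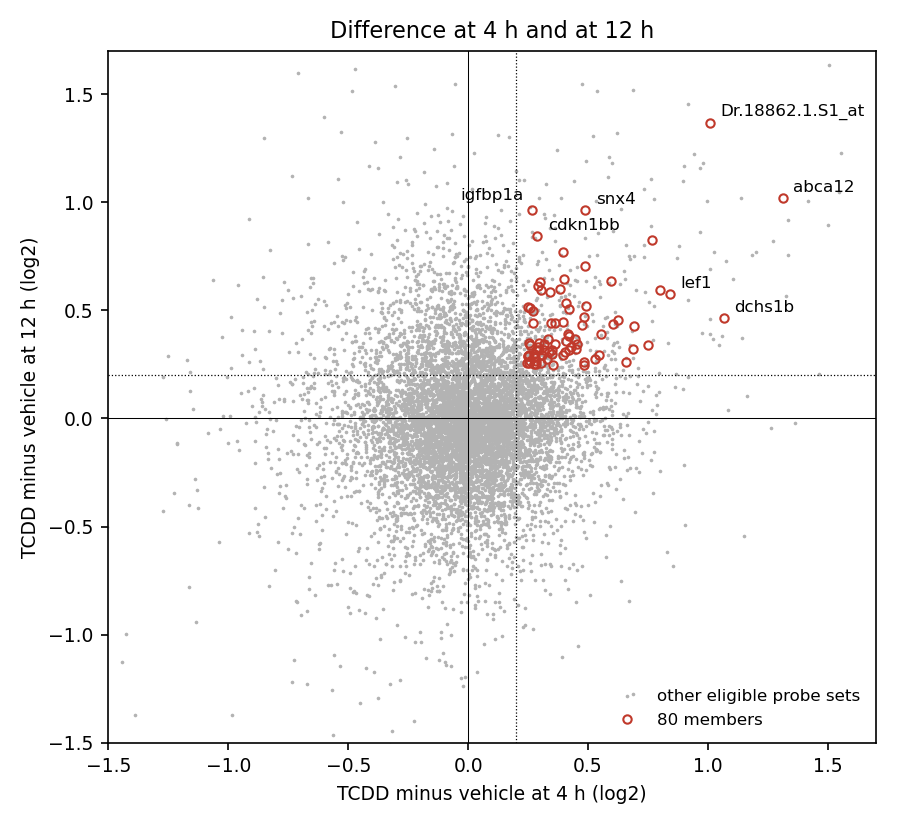
TCDD minus vehicle difference of mean log2 intensity at 4 h (horizontal axis) against that at 12 h (vertical axis), with the 80 members as open circles and the other eligible probe sets as grey points (37 of the 8701 lie outside the axes). Dotted lines mark 0.2; abca12 and Dr.18862.1.S1_at stand apart at the upper right, and other grey points beyond the lines differed at 1 or 2 h or ranked lower.

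Members were mostly well above the dimmest signals of the array. Their mean log2 intensity over the 24 arrays ran from 4.00 to 10.27 with a median of 6.97, against a median of 6.34 for eligible probe sets. The median member ranked above 78.6% of probe sets in TCDD jaws and 74.4% in vehicle jaws at 4 h, and above 82.6% and 77.8% at 12 h. At 1 h these ranks were 77.1% with TCDD and 77.3% with vehicle, and at 2 h 80.1% and 78.6%. A few members were dim at 12 h, where the mean of 2 members in TCDD jaws and of 5 in vehicle jaws lay within 1 log2 unit of the brightest of 3 probe sets for fluorescent proteins, which wild-type fish lack (2.71). The 5 were herpud2, ada2a, lef1, chd7 and zgc:56585, and the 2 were herpud2 and ada2a. The lowest was herpud2, named for a relative of a protein of endoplasmic reticulum stress, with 2.95, 2.96 and 3.28 in TCDD jaws and 2.69, 2.62 and 2.78 in vehicle jaws. Its vehicle mean of 2.70 was not above that reporter, so its 12 h difference is not read as one between measured levels. At 4 h it held 5.76, 5.80 and 6.06 with TCDD and 5.44, 5.66 and 5.51 with vehicle. It ranked above 62.4% of probe sets with TCDD and 58.4% with vehicle at 4 h.

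Other probe sets of the members' genes give a second reading of the same RNA with other probes. Of the 59 members with a symbol, 16 had at least 1 further probe set for the same gene, 25 in all, and 17 of these, for 12 members, had a mean level of at least 4. At 12 h 11 of the 17 (64.7%) were at least 0.2 higher with TCDD, beside 22.7% of eligible probe sets. At 4 h 2 of the 17 (11.8%) were, beside 19% of eligible probe sets. The 12 h count rested on TCDD 12 h replicate 3, the array whose dap signal differed from that of the other 12 h arrays. Without it 3 of the 17 (17.6%) were at least 0.2 higher, beside 18.4% of eligible probe sets, and without any other single array of 12 h between 9 and 11 were. Of the 17, 11 were highest on TCDD 12 h replicate 3 among the TCDD arrays of 12 h, beside 37.2% of eligible probe sets. The 4 h count was 4, 3 and 3 without TCDD replicate 1, 2 or 3 and 5, 1 and 1 without vehicle replicate 1, 2 or 3. None of the 25 passed the limma threshold at 4 or 12 h. At an unadjusted p under 0.05 in either direction there were 0 and 5, and without TCDD 12 h replicate 3 the 5 became 0. The share of all probe sets in either direction is not given, so nothing is read from these counts. The 5 included a khdrbs1a probe set that was lower with TCDD (−0.85). The 17 are not independent of each other, as khdrbs1a alone has 5 of them.

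The bound of 0.2 was reached at both times by the second probe sets of igfbp1a (0.32 at 4 h and 0.93 at 12 h) and ubb (0.21 and 0.73). That of igfbp1a was 0.64 higher at 12 h without TCDD 12 h replicate 3, while that of ubb stood at −0.04. The second ubb probe set held 11.40, 10.57 and 13.30 at 12 h with TCDD, against 11.04, 11.10 and 10.94 with vehicle, so replicate 3 was high and replicate 2 lay below the vehicle arrays. The ubb member itself was 0.45 higher at 12 h without that array. The second igfbp1a probe set had a difference of −0.48 at 1 h, outside the bound that the member met. At 12 h and not at 4 h the bound was reached by the second probe sets of sox3 (0.13 at 4 h and 0.62 at 12 h), rca2.1 (0.00 and 0.70), tmem165 (−0.11 and 0.81), zmat2 (0.06 and 0.82) and cops4 (−0.26 and 0.61). Both further probe sets of anxa5b, an annexin that binds phosphatidylserine, did likewise, with −0.19 and −0.32 at 4 h against 0.62 and 0.53 at 12 h. Without TCDD 12 h replicate 3 the 12 h differences were 0.29 for sox3 and 0.27 for rca2.1, but 0.16 for tmem165, 0.14 for zmat2, 0.11 for cops4, and 0.15 and −0.12 for anxa5b. The members of tmem165 and zmat2 stood at 0.16 and 0.11 on the same arrays, under the bound of the rule. The part of the dap shift in these values was not tested. The second probe sets of cdkn1bb (0.12 and −0.05), chd7 (−0.01 and −0.18) and msi2b (0.12 and 0.02) stayed within 0.2 of vehicle at both times. The 5 for khdrbs1a, an RNA-binding protein of the STAR family, lay between −0.33 and 0.11 at 4 h and between −0.85 and 0.31 at 12 h. The member itself had a standard error of 0.48, with TCDD levels of 8.12, 7.73 and 6.50 at 4 h across vehicle levels of 5.52, 7.19 and 8.01.

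**Figure D4:**
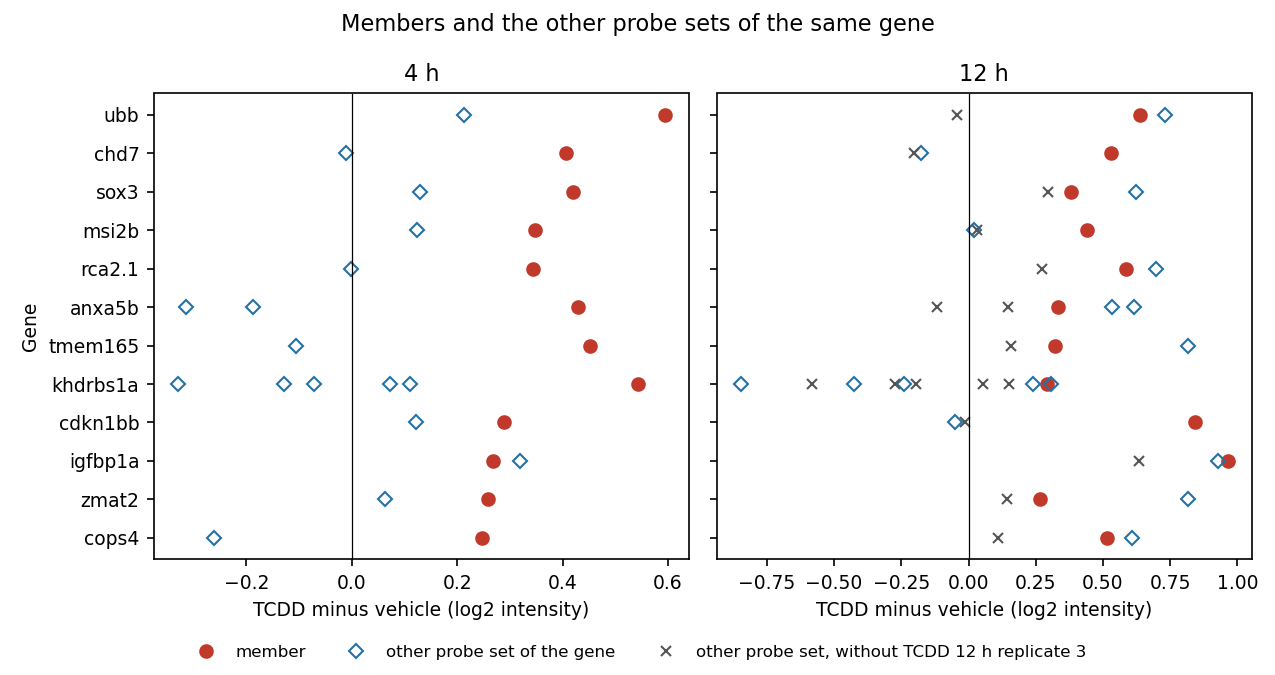
TCDD minus vehicle difference of mean log2 intensity at 4 h (left) and 12 h (right) for the 12 members that share a gene symbol with another probe set of mean level at least 4, with members as filled circles, the 17 other probe sets as open diamonds and, at 12 h, the same 17 without TCDD 12 h replicate 3 as crosses. At 4 h the diamonds of ubb and igfbp1a alone reach 0.2, while at 12 h 11 of the 17 diamonds and 3 of the 17 crosses do.

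Probe set identifiers also share cluster numbers, which do not always mark 1 gene. For 14 members there were 45 further probe sets of the same number, 27 of them annotated to another gene, and none of the 45 passed the threshold at 4 or 12 h. At an unadjusted p under 0.05 in either direction there were 2 and 8, the 8 becoming 2 without TCDD 12 h replicate 3. Nothing is read from these counts either, as the share of all probe sets in either direction is not given. Among the 8, probe sets of tuba5 (−0.46), hapln1a (−0.81) and khdrbs1a (−0.85) were lower with TCDD. The cluster number of sox3 covers 18 of them, among them hmga1a and hapln1a, with differences from −0.62 to 0.59 at 4 h and from −0.81 to 0.33 at 12 h. That of ubb holds si:ch211-202a12.4 (0.38 at 4 h and 0.59 at 12 h) and a probe set without a single symbol (0.34 and 0.69) beside the second ubb probe set, at 0.52 and 0.37 at 12 h without TCDD 12 h replicate 3. Both also lay outside the early bound that the members met, si:ch211-202a12.4 with 0.44 at 2 h and the other with −0.26 at 1 h. The partner of Dr.19440.1.A1_at, Dr.19440.2.A1_at, had differences of 0.33 at 4 h and −0.30 at 12 h. For calr3b (0.26 and 0.29) the partner, id:ibd1087, was 0.40 and 0.20 higher, and for pdcd10a (0.28 and 0.25) it was mdka, at −0.01 and 0.04. The early bound was also missed by id:ibd1087, with 0.37 at 1 h, and by mdka, with −0.27 at 2 h. The partners of saraf (0.66 and 0.26) and kyat1 (0.36 and 0.44) were of the same gene and too dim to read, with mean levels of 2.89 and 2.81.

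No member was on any of 10 pathway lists or 10 cell type marker lists. The lists cover few of the 15502 probe sets, with 47 for the cell types, and only 7 of the 17 AHR genes were found on the array. Nothing is therefore read from the absence of members. Among 9 probe sets of the AHR list, 4 were past the threshold as higher at 4 h and 4 at 12 h (cyp1a, cyp1c1, ahr2 and tiparp) and none as lower, with a median difference of 1.22 at 4 h and 1.93 at 12 h. The members' medians were 0.36 and 0.35, a contrast from which nothing is read, since the rule kept these AHR genes out. Of the 10 probe sets of the NRF2 and glutathione list, prdx1 was lower at 4 h (−1.27) and gclm (0.85) and gstp1.2 (0.83) were higher at 12 h. In the cell cycle list of 16 probe sets, mcm2 (−1.42), mcm3 (−1.13) and mcm5 (−1.14), subunits of the replicative helicase, were lower at 4 h and none was called at 12 h. Among 16 cartilage probe sets sox9b alone was called, as lower at 4 h (−2.35) and 12 h (−3.77), and among 11 bone probe sets col10a1a alone was, lower at 12 h (−0.81), a call lost without TCDD 12 h replicate 3 (−0.72, limma adjusted p = 0.179). No probe set was called at 4 or 12 h in the lists for protein folding (13), the proteasome (9), the ribosome (8), inflammation (10) and sterol and lipid synthesis (10).

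In bulk tissue, fewer cells of a type and less RNA per cell cannot be told apart, so the cell type markers are set beside the members. At 4 h the summed marker level of TCDD and vehicle jaws overlapped for muscle, heart, red blood cells, neurons, eye, skin, gut and liver, thymus and vessels. Some of these ranges were wide, as for heart (7.245 to 9.32 with TCDD, 7.3 to 9.44 with vehicle), so overlap does not show equal amounts of a cell type. At 12 h TCDD jaws were lower without overlap for muscle (11.77 to 12.27 with TCDD, 12.49 to 12.68 with vehicle), skin (12.88 to 13.16 with TCDD, 13.26 to 13.47 with vehicle) and gut and liver (5.18 to 5.26 with TCDD, 5.37 to 5.45 with vehicle). No probe set of these 3 lists was called (without TCDD 12 h replicate 3 the keratin gene krt4 was, as lower, with −0.73 and a limma adjusted p of 0.0105, and the 3 sums still did not overlap), and the part of these shifts in the members' differences was not tested. The 4 skin probe sets had 12 h differences of −0.56 (krt4), −0.10 (krt5) and −0.61 and −0.18 (tp63). abca12, a gene of skin in other animals, was higher at 12 h, and any link to the skin sum was not tested. The leukocyte list was higher with TCDD at both times through 1 probe set, Dr.9478.2.S1_at, annotated to mpx but bearing the cluster number of cyp1a. Without it the 7 other probe sets summed to 8.17 to 8.26 with TCDD and 7.56 to 8.28 with vehicle at 4 h, and to 7.08 to 7.61 with TCDD and 6.93 to 7.34 with vehicle at 12 h. Markers of red blood cells and of the thymus were at a mean level under 4 in all of their 3 and 2 probe sets. Of the 5 gut and liver probe sets, 3 were also under 4, so the small 12 h shift of that sum is not read as one between measured levels.

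Membership depended on small margins. The last members kept were tafazzin (0.48 at 4 h and 0.25 at 12 h), a gene of cardiolipin remodelling, Dr.22290.1.S1_at (0.35 and 0.25) and Dr.2723.1.A1_at (0.2458 and 0.2561). The first left out were zgc:152863 (0.2457 and 0.2968), arrb2b (0.42 and 0.24) and zgc:174906 (0.24 and 0.36). The rule applied again without TCDD 12 h replicate 3 returned 57 of the 80 members, and 73 of the 80 were still at least 0.2 higher at 12 h. Applied without TCDD 1 h replicate 2 it returned 60, and 64 of the 80 stayed within 0.2 of vehicle at 1 h. Without replicate 1, 2 or 3 at every time it returned 17, 31 and 28 members.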

How the data were processed

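RNA of dissected zebrafish jaws was measured on 24 one-colour arrays, grouped by treatment and time from the labels. The deposited table holds linear intensities of 15617 probe sets, a scale read from its range of values. RMA and GCRMA, methods that turn probe signals into normalized probe set values, are listed in the submitters' processing notes, with no role, order or version given in the sources used here. The authors' values were used unchanged except for a log2 transform with no offset, and 115 control probe sets were left out. The array number per group limits the precision.

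limma 3.58.1 in R 4.3.3 was fitted to 15502 probe sets with 8 group means (16 residual degrees of freedom), eBayes and Benjamini-Hochberg adjustment over all of them. It was tested on simulated data. The members and lists were chosen with earlier results of these data known. Named genes are the first 25 by rank, members with a further probe set of the same cluster number, and those at the edge of the rule. The further members named, the members past the threshold and those given by role, were chosen after their values were seen, as was the grouping of probe sets by gene. Symbols come from GEO's platform annotation, updated by Entrez ID for 10711 of the 10795 probe sets with 1 symbol; 135 had several and 4572 none.

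Alternatives were quantile normalization, an offset of 16, above-median probe sets, eBayes with a trend, array weights, the replicate number as a block, and leaving out arrays. The dap covariate, the fit without TCDD 1 h replicate 2 and the counts of same-gene probe sets without single arrays were added after seeing the data. The p-values measure the spread between pools of 10 jaws. TCDD and vehicle arrays of one replicate number and one time did not deviate together, with correlations between −0.471 and 0.168 over probe sets. Arrays of one number were not compared between times.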

Additional observations from a re-analysis of the deposited data

Results flagged for a closer look

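A control outside the main measurement set TCDD 1 h replicate 2 and TCDD 12 h replicate 3 apart from the other arrays of their times. On TCDD 1 h replicate 2 it was −2.92, while the other 1 h arrays lay between −0.77 and 0.16. On TCDD 12 h replicate 3 the dap 5′ minus 3′ signal was −0.5134 on the log2 scale, while the vehicle arrays at 12 h lay between −3.80 and −3.53. Vehicle arrays at 1, 2 and 4 h lay between −1.35 and −0.24, a range that holds this value. Without TCDD 12 h replicate 3 the members' 12 h median was 0.42, against 0.35 with it, and 2 members were past the threshold at 12 h in place of 3. With that array 60 of the 15502 probe sets (0.387%) were past the threshold as higher. The share without that array is not given, so nothing is read from these counts of members. Of 17 further probe sets of the members' genes, 3 (17.65%) were at least 0.2 higher at 12 h without that array, beside 18.4% of eligible probe sets. With that array 11 (64.7%) were, beside 22.7% of eligible probe sets.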

How the results depend on the processing

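Quantile normalization of all arrays left 5 members called at 12 h and returned 48 of the 80 by the rule. Array weights gave 21 called at 12 h and 7 at 4 h, and called 4 of the further probe sets of the members' clusters. The share of all probe sets called is not given for the alternatives, so nothing about the members is read from these counts. An offset of 16 gave a 12 h median of 0.28, and the dap covariate gave 0.41 with 42 members returned. Leaving out arrays or replicate numbers moved the members called at 4 h between 0 and 6, those called at 12 h between 0 and 4, the 4 h median between 0.30 and 0.46, the 12 h median between 0.35 and 0.42, and the members returned between 17 and 70. The medians at 4 and 12 h stayed above 0 under every alternative for which they were computed, which leaves out the block, the eBayes trend and array weights. The rule had chosen the members for differences of at least 0.2 on the same arrays, so this outcome describes them and tests nothing. The replicate number as a block gave 5 members called at 4 h and 3 at 12 h, and changed no other count. The number of arrays limits how small a difference could pass the threshold.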
